A study of Mus musculus with 6 samples.

Results

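The 8 imprinted fetal growth genes *H19*, *Dlk1*, *Meg3*, *Cdkn1c*, *Peg3*, *Mest*, *Plagl1* and *Ndn* were examined in lungs that lack *Rptor* in the epithelium. They were chosen by name as imprinted regulators of growth, and each of the 8 was found once among the 23420 genes of the table. Whole mouse lungs taken at E11.5, in embryonic days *post coitus* (*dpc*), when the first branches form, were profiled by bulk RNA-Seq. The control group comprised 3 pools of *Rptor* f/+; *Shh* Cre/+ lungs, and the mutant group comprised 3 pools of *Rptor* f/f; *Shh* Cre/+ lungs. *Rptor*, called Raptor in the sample labels, encodes an essential subunit of the mTORC1 kinase complex. Both groups carried the Cre allele at *Shh*, which drives recombination in the lung epithelium and replaces one functional *Shh* copy, and the controls also carried one floxed *Rptor* allele. Each pool combined 3 or 4 lungs of a genotype, so individual embryos are not resolved. Cells outside the *Shh* lineage, among them the mesenchyme, endothelium and blood, keep *Rptor* in both groups.

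Imprinted genes are transcribed mainly from the maternal or the paternal copy, according to methylation marks set in the germ line. Many of them control the size of the fetus: genes read from the paternal copy often promote growth, and those read from the maternal copy often restrain it. Several are abundant in embryonic mesenchyme and decline after birth. Of the genes examined, *H19*, *Meg3* and *Cdkn1c* are known as maternally expressed and *Dlk1*, *Peg3*, *Mest*, *Plagl1* and *Ndn* as paternally expressed. The counts do not separate the parental copies.

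The genes lie at 7 imprinted loci, given here in GRCm38 coordinates with GENCODE M21 gene bounds. *H19*, a long noncoding RNA, spans chr7:142575529-142578143 on the minus strand and shares its locus with the growth factor gene *Igf2* (chr7:142650766-142666816, minus strand). *Cdkn1c* (chr7:143458339-143461050, minus strand), *Ndn* (chr7:62346569-62350262, plus strand) and *Peg3* (chr7:6703892-6730431, minus strand) lie on the same chromosome. *Dlk1* (chr12:109452823-109463336) and the noncoding *Meg3* (chr12:109541001-109571726) are neighbours on the plus strand of chromosome 12 and share a locus. *Mest* occupies chr6:30723547-30748465 and *Plagl1* chr10:13060504-13131694, both on the plus strand. *Mest* overlaps *Copg2* on the opposite strand, and the strand setting of the counting was not given in the sources used here, so reads of the overlapping parts cannot be told apart. The same holds for noncoding genes annotated opposite *H19*, *Meg3*, *Cdkn1c* and *Plagl1*.

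Several of these transcripts carry microRNAs, and their mature sequences are shown because they are the small RNA products of the member loci. The RefSeq entries on GRCm38.p6 are written from 5′ to 3′ with the seed, bases 2 to 8, in capitals. Those of *H19* lie in an exon, as do those of *Meg3*, and those of *Mest* lie in an intron.
mmu-miR-675-5p (*H19*): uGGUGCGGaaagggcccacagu
mmu-miR-675-3p (*H19*): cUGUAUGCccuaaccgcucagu
mmu-miR-335-5p (*Mest*): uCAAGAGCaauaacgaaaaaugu
mmu-miR-335-3p (*Mest*): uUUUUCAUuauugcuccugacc
mmu-miR-770-5p (*Meg3*): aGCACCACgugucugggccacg
mmu-miR-770-3p (*Meg3*): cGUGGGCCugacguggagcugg
No seed was shared among the 6 sequences. As separate rows of the count table, *Mir675* and *Mir770* were listed at 0 in every pool. *Mir335* had normalized counts of 5.89, 7.23 and 4.97 in the control pools and 1.02, 4.90 and 1.96 in the mutant pools. Such low counts in a long RNA library measure host transcript or precursor fragments and give no level for the mature microRNAs.

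Promoter windows of 300 bases, 250 before and 50 after a RefSeq start, were found for 6 of the 8 genes, 9 windows in all. They were searched on both strands for GGGGCCCC, a short form of the sequence that the zinc finger factor PLAGL1 is known to bind. This sequence occurs in 1.08% of 32851 windows of the same length. Among the genes examined it was found in 1 of the 9 windows, that of *Peg3*, beginning 201 bases before the start. The window is printed because it holds the short form of the PLAGL1 sequence, marked in capitals, and PLAGL1 is encoded by another of the genes.
*Peg3* promoter, GRCm38, chr7:6730370-6730669, minus strand: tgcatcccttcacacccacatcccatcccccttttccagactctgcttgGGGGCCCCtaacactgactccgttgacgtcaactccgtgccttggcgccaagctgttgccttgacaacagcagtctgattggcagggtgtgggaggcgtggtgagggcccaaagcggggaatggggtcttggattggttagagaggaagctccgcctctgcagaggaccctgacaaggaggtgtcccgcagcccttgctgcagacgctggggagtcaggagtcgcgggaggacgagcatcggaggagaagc
The TATA motif TATAAA, present in 13.6% of windows, was found in 1 window of *Meg3*, beginning 25 bases before its start. The YY1 motif AAGATGG, present in 6.34% of windows, was not in these windows. A match is a description of the sequence and not evidence of binding. No promoter window was used for *H19* or *Cdkn1c*.

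All 8 genes were well above the detection limit. *H19* was the second most abundant transcript of the whole table by mean normalized count, the deposited read count scaled for library size. Together the 8 genes held between 1.03% and 1.09% of all normalized counts in a pool, with *H19* alone at 0.502% to 0.546%. This share was 1.05%, 1.03% and 1.05% in the control pools and 1.07%, 1.08% and 1.09% in the mutant pools. The mutant pools therefore sat above the control pools in summed level, by a small margin. Counting error alone amounted to between 0.301% and 1.69% of each gene's value per pool, at a depth of 20197642 to 21276090 reads. It was below the spread between pools in both groups for each gene except *Ndn*, where it was 1.69% beside a coefficient of variation of 2.52% in the control pools and 0.377% in the mutant pools.

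None of the 8 genes passed an adjusted p of 0.05 with limma, edgeR or DESeq2. The background was low as well: limma called 86 of the 17168 genes tested (0.501%), with 32 higher (0.186%) and 54 lower (0.315%) in the mutant pools, while edgeR called 0.539% and DESeq2 1.93%. At an unadjusted p under 0.05, limma listed 2 of the 8, edgeR 2 and DESeq2 1, against 13.6% of all genes for limma. By the same measure edgeR listed 2190 of the 14670 genes it tested. DESeq2 listed 1566 of the 17168 genes tested with limma. Both genes listed by limma were higher in the mutant pools (6.67% of all genes) and 0 of 8 were lower (6.89% of all genes). The log2 fold change, mutant over control, was above 0 for 6 genes and below 0 for 2. The median over the 8 genes was 0.06, beside -0.00 over all genes tested. In 2 of the 8, *Cdkn1c* and *Ndn*, every mutant pool was above every control pool, a pattern met in 9.77% of all genes tested.

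**Figure D1:**
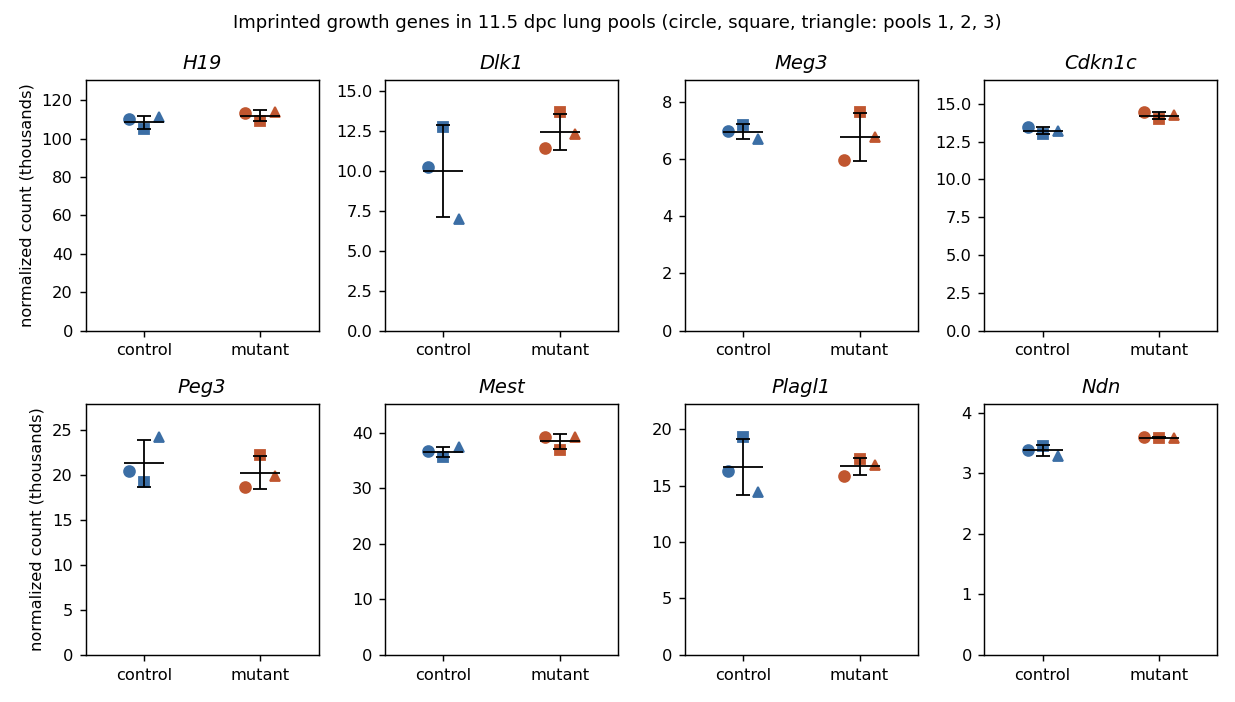
Normalized counts of the 8 genes in each pool in units of 1000 on linear axes from 0, with points for the 3 control and 3 mutant pools and a black bar with whiskers for the mean ± SD. *Cdkn1c* and *Ndn* show separated groups with small offsets, and *Dlk1* shows 1 low control pool at 6999.

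*Cdkn1c* encodes p57, an inhibitor of cyclin-dependent kinases that restrains cell division. Its normalized counts were 13460.5, 12983 and 13200 in the control pools and 14430, 14009 and 14245 in the mutant pools. The 2 groups did not overlap, and the lowest mutant pool was above the highest control pool. The mutant mean was 7.67% higher (14228 ± 211 against 13214 ± 239, SD, n = 3 pools each). On the log2 scale the difference was 0.11 with a standard error (SE) of 0.04 and a 95% confidence interval of 0.03 to 0.19. The adjusted p from limma was 0.217, so the difference did not pass.

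*Ndn* encodes necdin, a MAGE family protein known as a growth suppressor in postmitotic neurons. Normalized counts were 3386, 3459.8 and 3290 in the control pools and 3605, 3591 and 3578 in the mutant pools. The groups again did not overlap, and the mutant pools lay close together with an SD of 13.6. The mutant mean was 6.30% higher, a log2 difference of 0.09 (SE 0.04) with a limma adjusted p of 0.351. It did not pass the test.

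*H19*, a noncoding RNA that restrains fetal growth, was nearly level between the groups. Its normalized counts were 110100, 104740 and 111016 in the control pools and 113495, 108922 and 113618 in the mutant pools. The groups overlapped, since the lowest mutant pool was below 2 of the control pools. The log2 difference was 0.04 (SE 0.04) with a confidence interval of -0.05 to 0.14 and a limma adjusted p of 0.703.

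*Igf2*, the paternally expressed growth factor gene of the same locus, was compared with *H19* in each pool. Its normalized counts were 71113, 69356 and 72851 in the control pools and 80053, 80328 and 80327 in the mutant pools. The groups did not overlap, and the log2 difference was 0.17 (SE 0.04, 95% interval 0.09 to 0.26). The limma adjusted p was 0.0923 and did not pass, whereas DESeq2 on the recovered reads gave an adjusted p of 0.00224. Without control pool 3 the limma adjusted p for *Igf2* was 0.00778. With any other single pool left out it was 0.105 to 0.423, and without the variance trend it was 0.286. Of the 16 alternatives run for *Igf2*, 2 passed, namely DESeq2 and the fit without control pool 3. The *H19* to *Igf2* log2 ratio was 0.63, 0.59 and 0.61 in the control pools and 0.50, 0.44 and 0.50 in the mutant pools. Every mutant pool had a lower ratio than every control pool, with a mean difference of -0.13. A two-sided exact permutation test gave p = 0.1, the smallest value that 3 against 3 pools allow.

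*Dlk1* encodes a transmembrane protein of the Notch ligand family that holds back the differentiation of fat cell precursors, and it had the widest spread of the 8 genes. Its normalized counts were 10258, 12745 and 6999 in the control pools and 11403, 13638 and 12285 in the mutant pools. The groups overlapped, with control pool 2 above 2 mutant pools and control pool 3 far below the others. The control pools had a coefficient of variation of 28.8%, and among the 5281 genes with a mean of at least 1000 a higher value was met in 0.530%. The log2 difference was 0.35 (SE 0.17, 95% interval -0.02 to 0.73), with a limma adjusted p of 0.394. Without control pool 3 it was 0.12, and without control pool 2 it was 0.55 with an adjusted p of 0.0752.

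*Meg3*, the maternally expressed noncoding RNA downstream of *Dlk1*, is known as a growth suppressor. Its normalized counts were 7004, 7209.9 and 6715 in the control pools and 5961, 7645 and 6772 in the mutant pools. Here the mutant pools were the more variable and contained both the lowest and the highest value. The log2 difference was -0.05 (SE 0.08, 95% interval -0.21 to 0.12) with a limma adjusted p of 0.843. The *Meg3* to *Dlk1* log2 ratio was -0.55, -0.82 and -0.06 in the control pools and -0.94, -0.84 and -0.86 in the mutant pools. The ratio was lower in each mutant pool than in each control pool, yet control pool 2 differed little from the mutant pools. The mean difference was -0.40 (exact permutation p = 0.1, two-sided), and it was -0.19 without control pool 3.

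*Rian* and *Mirg* are noncoding RNAs downstream of *Meg3*, known to be read from the same maternal copy and strand. *Rian* normalized counts were 8043, 8533 and 7301 in the control pools and 8422, 9425 and 8664 in the mutant pools. The groups overlapped, with control pool 2 above mutant pool 1, and the log2 difference was 0.15 with a limma adjusted p of 0.310. Relative to *Meg3*, the log2 ratio of *Rian* was 0.20, 0.24 and 0.12 in the control pools and 0.50, 0.30 and 0.36 in the mutant pools. That of *Mirg* was -4.11, -4.21 and -4.30 in the control pools and -4.04, -4.00 and -4.01 in the mutant pools. Both ratios were higher in every mutant pool, by 0.20 and 0.19 (exact permutation p = 0.1 for each). These ratios, and that of *Cdkn1c* to the antisense RNA *Kcnq1ot1* of its locus (difference 0.19, exact permutation p = 0.8, groups overlapping), were chosen after the values had been seen. In all, 5 ratios were computed, and none could reach 0.05 with 3 pools a group.

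**Figure D2:**
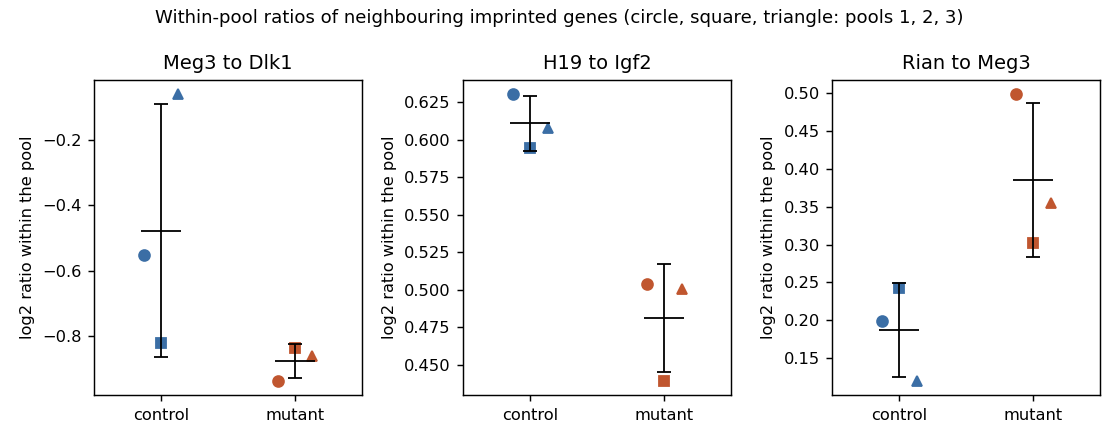
Log2 ratios within each pool of *Meg3* to *Dlk1*, *H19* to *Igf2* and *Rian* to *Meg3*, with pools as points and a black bar with whiskers for the mean ± SD. The *H19* to *Igf2* ratio separates the groups by 0.13 with little spread, and the *Meg3* to *Dlk1* ratio spreads from -0.82 to -0.06 among the control pools.

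*Mest* encodes a protein of the alpha/beta hydrolase fold that is abundant in mesoderm derivatives. Its normalized counts were 36652, 35715 and 37412 in the control pools and 39296, 36970.0 and 39232 in the mutant pools. The groups overlapped because control pool 3 was above mutant pool 2. The log2 difference was 0.07 (SE 0.04, 95% interval -0.02 to 0.16) with a limma adjusted p of 0.467.

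*Peg3*, a zinc finger protein gene, had normalized counts of 20431, 19194 and 24262 in the control pools and 18723, 22252 and 19868 in the mutant pools. The highest value was in control pool 3 and the lowest in mutant pool 1, and the groups overlapped. *Plagl1*, which encodes a zinc finger factor that induces cell cycle arrest, had 16280, 19317 and 14420 in the control pools and 15883, 17367 and 16831 in the mutant pools. Its group means, 16673 ± 2472 and 16694 ± 751 (SD, n = 3 pools each), were almost the same. Control pool 3 had the highest *Peg3* value and the lowest *Plagl1* value. The log2 difference was -0.07 (SE 0.09) for *Peg3* and 0.01 (SE 0.09) for *Plagl1*, with limma adjusted p of 0.775 and 0.969. The 95% interval reached from -0.26 to 0.12 for *Peg3* and from -0.18 to 0.20 for *Plagl1*, so differences within these bounds were not excluded.

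Divided by exon length, taken as all annotated exons of a gene merged, the levels of 5 of the 8 genes kept their place in every pool. Those of *Plagl1*, *Dlk1* and *Peg3* did not. In normalized counts per kb of exon, *H19* ranged over the 6 pools from 42577 to 46186, *Mest* from 9053 to 9961 and *Cdkn1c* from 6367 to 7077. These ranges did not overlap with each other or with those of the genes below them. *Plagl1* followed with 1844 to 2471, *Dlk1* with 1237 to 2411 and *Peg3* with 1405 to 1821. The range of *Dlk1* overlapped those of both neighbours, so its place in the order is not set, with *Dlk1* above *Plagl1* in mutant pools 2 and 3 and below *Peg3* in control pool 3, while *Plagl1* was above *Peg3* in every pool. *Ndn* had a level of 891 to 976 and *Meg3* the lowest of 330 to 423. The place of *Meg3* depends on its merged exon length of 18.1 kb, against 3.69 kb for *Ndn*. In normalized counts *Meg3* was above *Ndn* in every pool. *Igf2*, at 12119 to 14036, would stand between *H19* and *Mest*.

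The 8 genes did not all share the same profile over the pools, and correlation between them was not computed. On the log2 scale, and relative to its own mean over the pools, *Dlk1* ranged over 0.96, while the other members ranged over 0.12 to 0.42. Averaged over the 8 genes, the deviations were -0.03, 0.02 and -0.10 in the control pools and -0.02, 0.08 and 0.04 in the mutant pools. *Ndn* lay nearest to this mean, with a root mean square difference of 0.0346 over the 6 pools, and *Dlk1* farthest, with 0.264. This distance depends on how far a gene ranges (0.13 for *Ndn*) and does not measure whether it rises and falls with the mean. Among other genes with a mean of at least 100, *Mast3* (0.0126), *Crtc3* (0.0126), *Smarcd3* (0.0147), *Dcp1b* (0.0156) and *2810004N23Rik* (0.0162) had the smallest differences from it. With 6 pools such likeness is a description only.

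**Figure D3:**
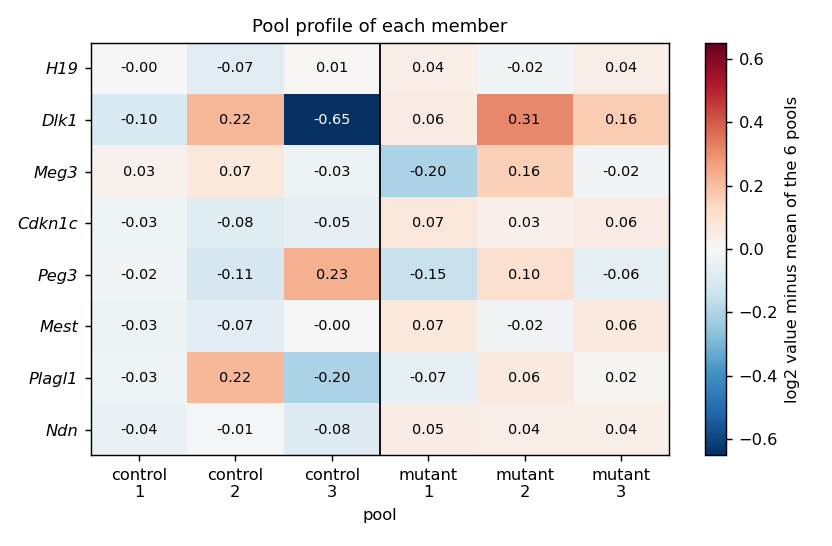
Deviation of each gene from its own mean over the 6 pools, in log2 units, by pool, as a heat map with the value written in each cell. *Dlk1* falls to -0.65 in control pool 3, where *Peg3* is at 0.23 and *Plagl1* at -0.20.

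Over all genes tested, control pool 3 stood apart from the other pools in this series. It was the highest or the lowest pool in 49.7% of all genes tested, in 4 of the 8 members and in 22 of 40 other imprinted genes, whereas the other pools were extreme in 24.5% to 37.8% of all genes. Among the 8 members it did not stand apart, since mutant pool 1 was extreme in 5 and control pool 2 in 4. *Xist*, the noncoding RNA of the inactive X chromosome and so a readout of the share of female cells, had normalized counts of 4599, 309 and 12989 in the control pools and 41.9, 466 and 161 in the mutant pools. With the *Xist* level as a covariate the *Dlk1* log2 difference was 0.01, and that of *Peg3* was 0.18. *Hbb-bh1*, an embryonic globin gene of primitive red cells, had 9007, 4545 and 15059 in the control pools and 7355, 6460.3 and 7049 in the mutant pools, so that control pool 3 was highest for it and lowest for *Dlk1*. *Lum*, a proteoglycan gene of fibroblasts, was lowest in the same pool at 312, against 696 to 903 in the others. *Lum* does not stand for the mesenchymal markers as a whole, of which control pool 3 was lowest in 7 of 18 and highest in 6, *Pdgfra*, *Pdgfrb*, *Prrx1*, *Twist1*, *Twist2* and *Osr1*. With the *Xist* covariate the log2 difference was 0.11 for *Cdkn1c* and 0.05 for *Ndn* (limma adjusted p 0.493 and 0.804). *Xist* was far higher in control pools 1 and 3 than in any mutant pool, so sex makeup and genotype were partly confounded. The part of sex and blood in the values of *Dlk1* and the other genes was not tested.

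Beyond the 8 genes, 45 other imprinted genes were listed, 44 were in the table and 40 were tested. With limma, 0 of 40 passed an adjusted p of 0.05, and 3 higher and 1 lower had an unadjusted p under 0.05, 4 of 40 beside 13.6% of all genes. With DESeq2, *Igf2* passed, and with edgeR none did. Fold changes were above 0 for 20 and below 0 for 20, with a median of 0.02. Groups did not overlap in 3 higher and 5 lower genes, beside 9.77% and 10.5% of all genes.

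*Grb10*, a maternally expressed adaptor that dampens insulin and IGF receptor signalling, had normalized counts of 46150.0, 47093 and 51838 in the control pools and 43197, 42183 and 44221 in the mutant pools. Each mutant pool was below each control pool, and the log2 difference was -0.16 with a limma adjusted p of 0.191. *Igf2r*, the maternally expressed receptor that clears IGF2, had 12633, 12466 and 13237 in the control pools and 12064, 12077 and 12082 in the mutant pools. Its groups did not overlap either, with a log2 difference of -0.08 and a limma adjusted p of 0.375. *Igf2* was higher and *Grb10* and *Igf2r* lower in every mutant pool, by amounts that did not pass limma. They belong to the 40 genes above, of which 20 had fold changes above 0 and 20 below. Other genes with the lowest p in these lists were *Zrsr1* (log2 difference 0.25, adjusted p 0.249), *Magel2* (-0.26, 0.378), *Zdbf2* (-0.28, 0.413) and *Ascl2* (0.69, 0.370), the last at 7 to 14 counts.

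Genes that maintain methylation imprints were also examined, and 0 of 14 passed an adjusted p of 0.05 with limma, edgeR or DESeq2. At an unadjusted p under 0.05, limma listed 3, all of them lower, beside 6.89% of all genes, and edgeR and DESeq2 listed 3 each. By the same measure edgeR listed 2190 of the 14670 genes it tested, and DESeq2 1566 of the 17168 tested with limma. Fold changes were below 0 for 11 and above 0 for 3, with a median of -0.05. *Smchd1*, a chromatin protein of imprinted and X-linked silencing, had a log2 difference of -0.11. *Dnmt1*, the maintenance methyltransferase, had -0.09, and *Uhrf1*, which recruits it to replicating DNA, had -0.11. In these 3 genes the mutant pools all lay under the lowest control pool, with limma adjusted p of 0.272, 0.321 and 0.334, a pattern met in 10.5% of all genes. *Zfp57*, a zinc finger protein that guards imprints in the early embryo, had the opposite pattern, with a log2 difference of 0.07 and a limma adjusted p of 0.506. *Zfp445*, which acts alongside it, had -0.10 with overlapping groups and a limma adjusted p of 0.488.

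Among 18 genes listed as paralogs and partners of the 8 genes, 1 passed with limma, beside 0.501% of all genes. *Ccnd1*, the D-type cyclin that opens the G1 phase and whose kinases act opposite to the CDK inhibitors, had normalized counts of 7691, 8202 and 7662 in the control pools and 6805, 6370.1 and 6571 in the mutant pools. It fell in the mutant pools, with no overlap, a log2 difference of -0.25 (SE 0.04) and a limma adjusted p of 0.0398. The call was lost with the variance trend left out (adjusted p 0.243) and without control pool 1 (0.248), mutant pool 1 (0.132), mutant pool 2 (0.183) or mutant pool 3 (0.254). Also without overlap and lower were *Ccnd2* (-0.16, limma adjusted p 0.0797), the *Plagl1* paralog *Plagl2* (-0.19, 0.1005) and the cyclin gene *Ccne2* (-0.17, 0.306), which makes 4 of 18 beside 10.5% of all genes. Higher without overlap were the *Cdkn1c* paralog *Cdkn1b*, which encodes p27 (0.25, limma adjusted p 0.132), and the *Dlk1* paralog *Dlk2* (1.02, 0.257), at 3.93 to 16.7 counts, which makes 2 of 18 beside 9.77%. DESeq2 called 3 of the 18, *Ccnd1*, *Ccnd2* (adjusted p 0.0102) and *Plagl2* (0.0402), and edgeR called 1. *Cdkn1a*, the other paralog of *Cdkn1c*, had a log2 difference of -0.08 with overlapping groups. Fold changes in this list were below 0 for 14 of 18, beside 8673 of 17168 over all genes tested.

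Markers of the lung's cell types differed between the groups. The 20 epithelial markers had summed normalized counts of 18023 to 22625 in the control pools and 14247 to 15398 in the mutant pools. With limma, 7 passed as lower, beside 0.315% of all genes. Fold changes were below 0 for 19 of the 20, with a median log2 difference of -0.45 and a lowest of -0.97. Lower without overlap were 16 of the 20, beside 10.5% of all genes. *Krt19*, a keratin gene of the same list, was higher in every mutant pool, with a log2 difference of 0.44, a limma adjusted p of 0.0734 and a DESeq2 adjusted p of 0.0248. The 18 mesenchymal markers summed to 119309 to 125517 in the control pools and 142577 to 149350 in the mutant pools, and 3 collagen genes, *Col1a1*, *Col1a2* and *Col3a1*, passed as higher, beside 0.186% of all genes. These collagens carried most of the sum, with 69281 to 75288 in the control pools and 88240 to 95749 in the mutant pools. The other 15 summed to 49495 to 51372 and 53601 to 54337. Over all 18, fold changes were above 0 for 15 and below 0 for 3. Higher without overlap were 7 of the 18, beside 9.77% of all genes. Besides the collagens these were *Tcf21* (log2 difference 0.19), *Meox2* (0.21), *Vim* (0.17) and *Tbx5* (0.13), which did not pass with limma. *Foxf1* (log2 difference 0.03), *Foxf2* (-0.03), *Osr1* (-0.02) and *Pdgfrb* (0.05) differed little, with overlapping groups. The 7 smooth muscle markers summed to 7753 to 9452 in the control pools and 10086 to 11066 in the mutant pools. With limma or edgeR 0 of 7 passed, and with DESeq2 1 did. At an unadjusted limma p under 0.05, 4 of them were higher, beside 6.67% of all genes. In whole lung RNA, fewer cells of a type and less RNA per cell cannot be told apart. When the pools were scaled to the 18 mesenchymal markers, the median of all genes moved to -0.17. The log2 difference became -0.06 for *Cdkn1c* and -0.08 for *Ndn*, and 1 of the 8 genes, *Dlk1*, stayed above 0. *Igf2* had a difference of 0.0041. Relative to that median, the values of *Cdkn1c* and *Ndn* were above it. The part of the shift in cell types in the values of *Cdkn1c*, *Ndn* and *Igf2* was not tested.

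Markers of other cell types and nearby tissues mostly did not pass with limma, with 1 of 5 mesothelial markers higher, beside 0.186% of all genes. Liver markers summed to 278 to 471 normalized counts. With limma, 0 of 7 cardiac, 0 of 7 liver and 0 of 6 neural markers passed. Of the others, 0 of 8 endothelial, 0 of 5 erythroid and 0 of 4 macrophage markers passed. At an unadjusted limma p under 0.05, 4 endothelial markers were higher, beside 6.67% of all genes. By the same measure 1 cardiac, 1 liver and 2 neural markers were lower, beside 6.89%. DESeq2 called 1 cardiac marker, *Myh6*, as lower (log2 difference -1.37, DESeq2 adjusted p 0.00709), with no overlap of the groups. The 7 cardiac markers summed to 1154 to 1236 in the control pools and 890 to 962 in the mutant pools. The erythroid sum was 96131 to 124035 in the control pools and 95354 to 118693 in the mutant pools, with *Hba-a1* and *Hba-a2* listed at 0. *Rptor* itself had normalized counts of 2126, 2193 and 2279 in the control pools and 2023, 2137 and 2148 in the mutant pools, with a log2 difference of -0.06 and a limma adjusted p of 0.584. A count over the whole gene in whole lung does not read out the floxed exon in the epithelium.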

How the data were processed

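Whole lungs at E11.5 were pooled by genotype, and RNA was sequenced. Per the labels' processing notes, the authors used Trim Galore, HISAT2, featureCounts and DESeq2 with the mm10 build; versions and the strand setting were not given in the sources used here. The deposited values are normalized counts, a signal per gene equal to read counts divided by a size factor. The authors' fold changes on a log2 scale, p-values and test scores were also deposited and were not used. Columns were assigned to samples by name. Whole reads were recovered for all 6 libraries (100% of values whole within 0.01), 20197642 to 21276090 reads per pool.

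Values were tested on log2(normalized count + 1) with limma 3.58.1 with a variance trend in R 4.3.3, over the 17168 genes with at least 1 in at least 3 pools, with Benjamini-Hochberg adjustment over all of them and a threshold of 0.05. Fold changes are on that scale. edgeR 4.0.16 (quasi-likelihood) and DESeq2 1.42.0 were run on the recovered reads, and ratios were compared by a two-sided exact permutation test. Other alternatives were upper-quartile and mesenchymal scaling, other filters and pseudocounts, a replicate block, an *Xist* covariate and leaving out each pool. The fits were tested on simulated data. Same-numbered pools correlated at -0.03, 0.17 and 0.06, so numbers were not taken as pairs. P-values weigh the group difference against the spread between pools, not between embryos. The counting error given for each gene covers the sampling of reads only.

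The 8 genes and all lists were chosen with earlier results of these data known. Named besides them were the 4 genes of lowest p in each list of imprinted, maintenance and partner genes, and the 5 genes nearest the mean profile. *Zfp57*, *Ccne2*, *Dlk2*, *Krt19*, *Cdkn1a*, *Lum*, *Hbb-bh1*, the mesenchymal markers and the ratios marked so were chosen after values were seen.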

Additional observations from a re-analysis of the deposited data

How the results depend on the processing

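The 8 genes gave 0 calls under every alternative run, with a lowest limma adjusted p of 0.0560 under mesenchymal scaling. Of 208 recomputed fold changes of single genes, 185 kept their direction and side of the threshold, 14 reversed, 3 passed the threshold and 6 lost it. Of 62 recomputed counts of calls and ratio differences, 12 moved, a count being taken as moved when it changed by over 1.5 times. The number of genes called, 86, was 8 without a variance trend, 4520 under mesenchymal scaling (29 higher, 4491 lower) and 277 with DESeq2, and 1 to 464 with 1 pool left out (464 without control pool 3, 1 without control pool 1 or mutant pool 3). Other imprinted genes called, 0, were 10 under mesenchymal scaling, all lower, 1 with DESeq2 and 0 to 1 with 1 pool left out. Mesenchymal scaling, which moved the median of all genes to -0.17, reversed *H19* (-0.13), *Cdkn1c* (-0.0638), *Mest* (-0.10), *Plagl1* (-0.16), *Ndn* (-0.0821) and *Rian* (-0.0183). The *Xist* covariate reversed *Meg3* (0.0225), *Peg3* (0.18) and *Plagl1* (-0.17). Leaving out 1 pool reversed *Meg3* (0.0451 without mutant pool 1), *Peg3* (0.0307 without control pool 3) and *Plagl1* (-0.000653, -0.0882 and -0.02 without control pools 1 and 3 and mutant pool 2, in a range of -0.0882 to 0.123). The *Meg3* to *Dlk1* ratio difference ranged from -0.57 to -0.19 and that of *H19* to *Igf2* from -0.14 to -0.11 with 1 pool left out. Apart from the scaling, whose shift of all genes is its own construction, the cause of these changes was not tested. With the replicate block, a pairing the numbers do not support, 71 genes, 0 members and 0 other imprinted genes were called, and *Ccnd1* had an adjusted p of 0.0569. Low counts limited the *Mir335* row, *Ascl2* and *Dlk2*, and for *Ndn* counting error exceeded the spread of the mutant pools. Why the *Mir675* and *Mir770* rows, which lie in exons of their hosts, were at 0 was not tested.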
